A study of Mus musculus with 17 samples.

Results

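Platelet genes were described as a set of 10 genes in bulk RNA of mouse cortex: Pf4, Ppbp, Gp9, Gp5, Gp6, Rgs18, Itga2b, Clec1b, Treml1 and Tubb1. They were taken by symbol, and each of the 10 had 1 row among the 25239 genes of the deposited count tables. The 17 libraries came from DAT-cre mice, a line with Cre recombinase under the dopamine transporter gene's control. The mice were classed by the labels as perseverers (addicted) or renouncers (non-addicted) in oDASS, a protocol in which mice stimulate their own dopamine neurons with light. Brain tissue imprints of the orbitofrontal cortex (OFC), taken before oDASS by a method the study's title presents as in vivo longitudinal sampling, gave 3 renouncer and 2 perseverer libraries. Dissections after oDASS gave 3 renouncer and 3 perseverer libraries of the OFC, and 3 and 3 of the medial prefrontal cortex (mPFC). The labels do not give ages, and they do not say whether replicates were separate animals or which libraries came from the same mouse, so the p-values measure the spread between these libraries, which may be technical. The time before or after oDASS coincides with the way of collection, and these cannot be told apart.

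Platelets are cell fragments shed into the blood by megakaryocytes. They have no nucleus and carry messenger RNA inherited from the megakaryocyte. Their α-granules hold chemokines, and their surface receptors bind von Willebrand factor, collagen, podoplanin and fibrinogen at a damaged vessel. In the healthy brain, platelets are found inside vessels and not in the tissue.

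Depth set what could be seen of the 10 genes. The imprints held 8960549 to 10662666 counts, of which haemoglobin genes took 85.4% to 90.7% in 4 libraries and 29.7% in renouncer replicate 1. Counts outside haemoglobin genes were 6555856 in that library and 979651 to 1305903 in the other 4 imprints. The OFC dissections held 13997596 to 20945108 counts and the mPFC dissections 12392731 to 17895184, with 0.0253% to 0.0787% in haemoglobin genes. Levels are therefore given as CPM, the count of a gene scaled to a total of 1000000 counts outside haemoglobin genes in each library. In this scale 3 counts, taken here as the limit that a count of 0 allows, were 0.458 CPM in renouncer imprint replicate 1, 2.30 to 3.06 CPM in the other imprints and 0.143 to 0.242 CPM in the dissections. Cortical neuron markers were present in every library, with a summed level of 1045 to 4659 CPM over 7 genes in the imprints and 8208 to 10316 CPM in the dissections.

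The 10 genes lie on 8 chromosomes of the mouse genome build GRCm38. Pf4 (chromosome 5, 90772435 to 90773383) and Ppbp (chromosome 5, 90768518 to 90770063) are neighbours on the same strand, 2371 bases apart. Clec1b (chromosome 6, 129397297 to 129405413) shares 3.61% of its exon bases with Clec9a, which itself had 1 count at most in any library. Of the other 9 genes, none shares exon bases with another annotated gene. The remaining positions are chromosome 6, 87776131 to 87779786 for Gp9, chromosome 16, 30307685 to 30310781 for Gp5, chromosome 7, 4362853 to 4397851 for Gp6, chromosome 1, 144752683 to 144775427 for Rgs18, chromosome 11, 102453297 to 102469883 for Itga2b, chromosome 17, 48359916 to 48367176 for Treml1 and chromosome 2, 174450595 to 174458380 for Tubb1.

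Megakaryocyte genes are known to be controlled by GATA and ETS family transcription factors, so windows of 250 bases before the start that the RefSeq promoter sequences use were searched in 9 of the genes for both kinds of motif (Rgs18 had no entry among the sequences used). For Gp9 that start lies inside the gene span given above, and the Gp6 window overlaps the upstream end of its span, so these 2 windows do not precede the outermost start. The letters searched on both strands for GATA were AGATAA or AGATAG or TGATAA or TGATAG, those for ETS were GGAAGT, and no ETS match overlapped a GATA match. A GATA match stood in 3 of the 9 windows (Gp5, Gp6 and Clec1b) and in 26.5% of the 32851 RefSeq windows of this length, and an ETS match in 5 of the 9 (Pf4, Ppbp, Gp9, Gp5 and Itga2b) and in 19.7% of all windows. Gp5 held both kinds, as did 4.82% of all windows. A match of letters is not a measured binding site. The windows of 5 genes are shown because they hold the matches of the neighbouring chemokine genes, of the window with both kinds of motif and of a pair of receptor genes. They are from RefSeq on GRCm38.p6, 5′ to 3′ on the gene's strand, with the matches in capitals (an ETS match on the opposite strand reads ACTTCC, one of GATA reads TTATCT): chr5:90772185-90772434 on the plus strand for Pf4, chr5:90768268-90768517 on the plus strand for Ppbp, chr16:30310782-30311031 on the minus strand for Gp5, chr11:102469884-102470133 on the minus strand for Itga2b and chr6:129397047-129397296 on the plus strand for Clec1b.
Pf4: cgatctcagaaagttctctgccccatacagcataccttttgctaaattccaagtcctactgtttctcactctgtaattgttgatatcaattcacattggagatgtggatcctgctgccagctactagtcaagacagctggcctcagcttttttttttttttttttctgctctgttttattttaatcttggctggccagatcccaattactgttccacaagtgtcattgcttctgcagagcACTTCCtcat
Ppbp: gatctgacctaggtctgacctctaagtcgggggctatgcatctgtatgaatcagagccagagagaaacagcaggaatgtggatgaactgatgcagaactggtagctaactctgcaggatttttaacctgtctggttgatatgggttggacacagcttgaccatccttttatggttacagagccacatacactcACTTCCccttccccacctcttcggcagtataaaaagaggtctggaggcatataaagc
Gp5: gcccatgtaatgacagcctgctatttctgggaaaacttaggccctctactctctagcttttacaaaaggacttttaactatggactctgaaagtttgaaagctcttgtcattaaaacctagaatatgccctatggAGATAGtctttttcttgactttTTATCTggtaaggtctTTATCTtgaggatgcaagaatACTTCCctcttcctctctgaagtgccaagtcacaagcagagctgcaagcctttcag
Itga2b: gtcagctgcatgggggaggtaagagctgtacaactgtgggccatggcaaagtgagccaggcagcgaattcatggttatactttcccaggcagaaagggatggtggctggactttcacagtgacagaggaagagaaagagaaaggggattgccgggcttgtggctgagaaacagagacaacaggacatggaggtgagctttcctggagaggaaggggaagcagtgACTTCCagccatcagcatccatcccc
Clec1b: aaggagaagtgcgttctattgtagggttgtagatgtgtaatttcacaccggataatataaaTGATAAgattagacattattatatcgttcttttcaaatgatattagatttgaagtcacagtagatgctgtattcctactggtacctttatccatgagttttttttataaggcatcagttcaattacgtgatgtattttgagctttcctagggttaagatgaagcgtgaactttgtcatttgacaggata

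The first comparison set imprints against dissections of the OFC. All 10 platelet genes were higher in the imprints past an adjusted p of 0.05 (edgeR's quasi-likelihood test, Benjamini-Hochberg adjustment over 15673 genes), in a comparison in which 16.4% of the genes tested were called higher in imprints. Every imprint was above every OFC dissection for each of the 10 genes, which held for 5.09% of the genes tested. The fitted log2 fold changes ran from 7.15 for Gp5 to 12.40 for Ppbp, with a median of 9.52, beside a median of -0.13 over all genes tested. In bulk RNA, fewer platelets in a sample and less RNA per platelet cannot be told apart. Of the 10 genes, 6 (Ppbp, Gp6, Rgs18, Clec1b, Treml1 and Tubb1) were too low for the count filter in the dissections alone and entered this test through the imprints, so their place among the called genes follows in part from the filter. Only Pf4, Gp5 and Itga2b passed the filter in both regions' dissections, and Gp9 passed it in the OFC.

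**Figure D1:**
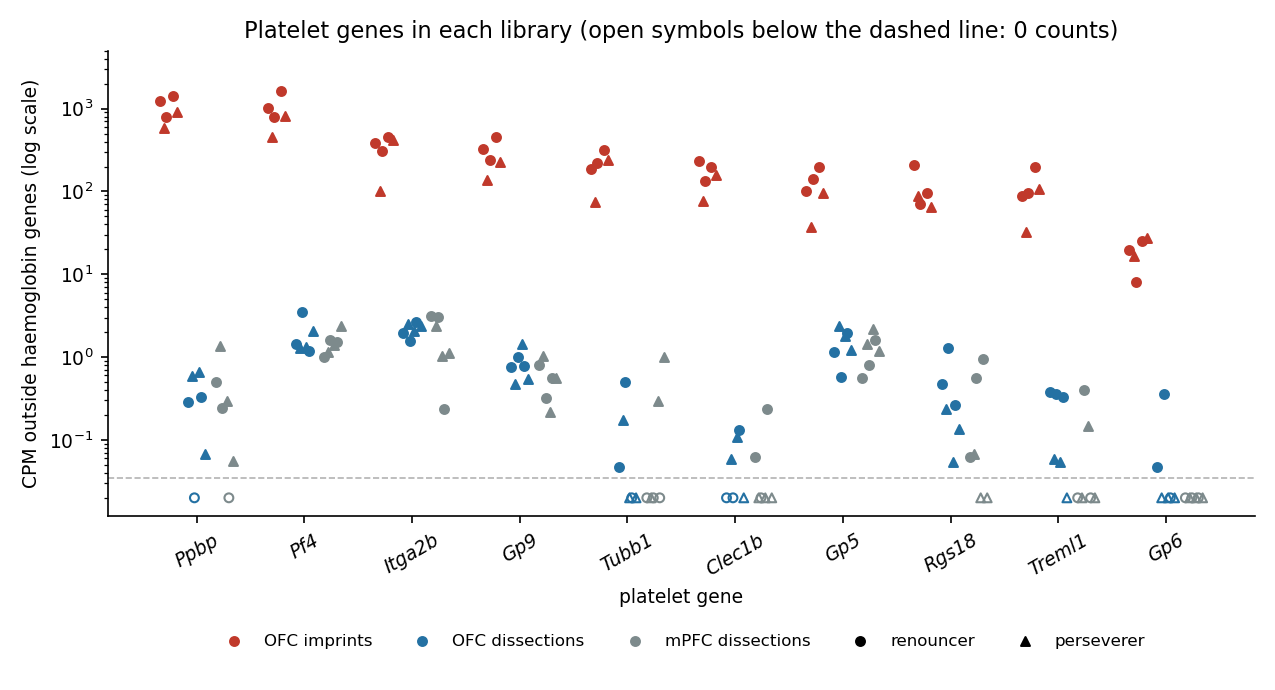
Each point is 1 library, with CPM outside haemoglobin genes on a log axis and the 10 genes along the x axis, ordered by their mean in the imprints. The red imprint points lie above all dissection points of the same gene, from 8.04 CPM in the lowest imprint for Gp6 to 1614 CPM in the highest for Pf4, and libraries with 0 counts are drawn as open symbols below the dashed line.

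The α-granule chemokines had the highest levels of the 10 genes in the imprints, also per kilobase of gene length. Pf4 encodes platelet factor 4 (CXCL4), a chemokine released from α-granules. It stood at 1009.6, 784 and 1614 CPM in renouncer imprints 1 to 3 and at 452 and 825 CPM in perseverer imprints 1 and 2. Its lowest, median and highest levels in the OFC dissections were 1.17, 1.37 and 3.50 CPM (18 to 49 counts per library). The lowest imprint was thus far above the highest dissection, and the ratio of the mean CPM was 522-fold. The fitted log2 fold change was 9.87 (SE 0.49, edgeR adjusted p = 1.01e-09), which is larger than that ratio. Unlike CPM, the fit uses scaling factors between libraries (TMM), at 0.448 to 1.23 in the imprints and 1.27 to 1.33 in the OFC dissections. Log2 fold changes here and below are from such fits and are not the log2 of CPM or pooled ratios. Ppbp encodes pro-platelet basic protein, the precursor of the neutrophil-attracting chemokine CXCL7. It stood at 1251, 799 and 1425 CPM in renouncer imprints 1 to 3 and at 581 and 903 CPM in the perseverer imprints. Each OFC dissection had 0 to 12 counts of it, or 0, 0.306 and 0.655 CPM as lowest, median and highest. Perseverer imprint 1 was the lowest imprint for both chemokines and renouncer imprint 3 the highest. Over the pooled counts Ppbp was 3289-fold higher in imprints, with a 95% exact interval of 2352 to 4751 that covers counting error only, and its log2 fold change was 12.40 (SE 0.64, edgeR adjusted p = 1.28e-09).

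The neighbouring chemokine genes had near equal counts in the imprints and unequal ones in most dissections. Counts of Ppbp per count of Pf4 were 0.883 to 1.29 in the 5 imprints, 0 to 0.5 in the 6 OFC dissections and 0 to 1.18 in the 6 mPFC dissections. The ratios of imprints and OFC dissections did not overlap, and in the mPFC only perseverer replicate 1 (20 Ppbp counts against 17 of Pf4) reached the range of the imprints. This difference of ratios was not tested. The other CXC chemokine genes of the same chromosome region (Cxcl1, Cxcl2, Cxcl3, Cxcl5 and Cxcl15) did not follow the platelet genes. Only Cxcl5 passed the filter, at 1.07 ± 1.38 CPM (SD, n = 5) in the imprints and 1.13 ± 0.364 CPM (n = 6) in the OFC dissections, and with a log2 fold change of 0.37 (SE 1.04) it did not pass the test (edgeR adjusted p = 0.814). Cxcl1 had 0 counts in all 5 imprints.

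Gp9 and Gp5 encode subunits of the von Willebrand factor receptor, which platelets use to tether to an injured vessel wall. Gp9 stood at 329, 242 and 448 CPM in renouncer imprints 1 to 3 and at 137 and 225 CPM in the perseverer imprints, against 0.469, 0.774 and 1.42 CPM as lowest, median and highest OFC dissection. Its log2 fold change was 9.16 (SE 0.44, edgeR adjusted p = 8.92e-10). Gp5 stood at 101, 142 and 197 CPM in renouncer imprints 1 to 3 and at 37.5 and 96.97 CPM in the perseverer imprints. Its lowest, median and highest OFC dissections were at 0.572, 1.52 and 2.35 CPM (8 to 40 counts). Gp5 had the smallest difference of the 10 genes on both measures. The ratio of the mean CPM was 76.1-fold, and the fitted log2 fold change, after TMM scaling, was 7.15 (SE 0.57, edgeR adjusted p = 2.20e-07). The ligand-binding subunit of the same receptor, Gp1ba, rose by a log2 fold change of 7.17 (SE 0.89, edgeR adjusted p = 1.62e-05) but was unevenly captured. It had 143, 47 and 23 counts in renouncer imprints 1 to 3, 28 in perseverer imprint 2 and 0 in perseverer imprint 1, where a count of 0 allows up to 2.30 CPM. Values of the remaining subunit gene, Gp1bb, are uncertain, since 92.9% of its exon bases are shared with Sept5 or Gm49601 and it was at 190.5 ± 18.7 CPM (n = 6) in the OFC dissections.

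Gp6 and Clec1b encode receptors that signal through the kinase Syk. Gp6, the collagen receptor, had the lowest level of the 10 genes, also per kilobase, with 19.7, 8.04 and 25.0 CPM in renouncer imprints 1 to 3 (129, 8 and 27 counts) and 16.8 and 27.6 CPM in the perseverer imprints (22 and 27 counts). All 6 of its counts in the OFC dissections fell in renouncer replicates 1 and 2 (1 and 5 counts), and the 6 mPFC dissections had none. It was 326-fold higher in imprints than in OFC dissections over the pooled counts (95% exact interval 147 to 898), and at least 567.6-fold higher than in mPFC dissections when 3 counts over that group are taken as the limit. The log2 fold change was 8.88 (SE 0.79, edgeR adjusted p = 4.65e-07). Fcer1g, the partner chain of GP6, rose by 3.17 (SE 0.22, edgeR adjusted p = 3.62e-08) from a base of 37.0 ± 7.91 CPM (n = 6) in the OFC dissections, where brain microglia are a known site of its expression. Clec1b encodes CLEC-2, the podoplanin receptor. It had 1515, 133 and 214 counts in renouncer imprints 1 to 3 and 101 and 153 in the perseverer imprints, or 231, 134, 198, 77.3 and 156 CPM. The OFC dissections had 5 counts of it in all, spread over 3 libraries with 1 or 2 each, and in the mPFC dissections 4. Clec1b thus had a fold change among the largest of the 10 genes, 12.14 in log2 (SE 0.56, edgeR adjusted p = 5.99e-10). The ligands moved less than the receptors: of Pdpn, Col1a1, Col1a2, Col3a1 and Lama5, Col1a1 rose (log2 fold change 3.34, SE 0.62, edgeR adjusted p = 0.000569) and the other 4 did not pass, with Pdpn at -0.51 (SE 0.66, edgeR adjusted p = 0.582).

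Itga2b encodes the α subunit of the fibrinogen receptor, which links platelets to each other. It stood at 382, 307 and 451 CPM in renouncer imprints 1 to 3 and at 100.3 and 423 CPM in the perseverer imprints, so that perseverer imprint 1 was alone at the low end. The OFC dissections had 1.57, 2.24 and 2.68 CPM as lowest, median and highest (22 to 43 counts per library). The log2 fold change was 8.19 (SE 0.49, edgeR adjusted p = 8.21e-09). Its partner Itgb3, the β subunit, rose by 6.61 (SE 0.54, edgeR adjusted p = 3.75e-07) and had 141 ± 64.7 CPM (n = 5) in imprints and 2.88 ± 0.839 CPM (n = 6) in OFC dissections.

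Treml1, Rgs18 and Tubb1 complete the set. Treml1 encodes TLT-1, a membrane protein of α-granules. It had 88.2, 96.5 and 199 CPM in renouncer imprints 1 to 3 and 32.2 and 106.2 CPM in the perseverer imprints, against 0 to 8 counts per OFC dissection, and a log2 fold change of 9.92 (SE 0.62, edgeR adjusted p = 1.67e-08). Rgs18, a regulator of G protein signalling in platelets and other blood cells, had 210 CPM in renouncer imprint 1 and 71.4, 96.1, 87.3 and 65.3 CPM in the other imprints. Its log2 fold change was 8.78 (SE 0.45, edgeR adjusted p = 1.18e-09). Tubb1 encodes the β-tubulin of the platelet's marginal band. It had 186, 219 and 314 CPM in renouncer imprints 1 to 3 and 74.3 and 243 CPM in the perseverer imprints, and 0 counts in 3 of the 6 OFC dissections, with a log2 fold change of 11.67 (SE 0.79, edgeR adjusted p = 9.98e-08). The other β-tubulin genes did not rise with it. None of 7 was higher. Tubb3, Tubb4a and Tubb5 were lower past the threshold, for example Tubb4a at -0.72 (SE 0.22, edgeR adjusted p = 0.0195), where 2726 of the 15673 genes tested were called lower. Under other scalings 1 to 5 of these 7 were lower and none was higher.

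Renouncer imprint 3 was the highest imprint for 7 of the 10 genes, and perseverer imprint 1 the lowest for 8. Clec1b and Rgs18 were highest in renouncer imprint 1 and Gp6 in perseverer imprint 2, and Gp6 was lowest in renouncer imprint 2 and Rgs18 in perseverer imprint 2.

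Corrected for gene length, the order of the levels in the imprints was Pf4 at 1593 CPM per kilobase, Ppbp at 917, Gp9 at 315, Clec1b at 136, Tubb1 at 103, Itga2b at 96.7, Treml1 at 83.5, Rgs18 at 52.4, Gp5 at 52.2 and Gp6 at 16.9. The ranges over the 5 libraries of neighbours in this order overlapped, except that the lowest library of Ppbp (537 CPM per kilobase) lay above the highest of Gp9 (511). In the OFC dissections the order was Pf4 at 3.05 CPM per kilobase, Gp9 at 0.947, Gp5 at 0.686, Itga2b at 0.640, Ppbp at 0.296, Rgs18 at 0.202, Treml1 at 0.157, Tubb1 at 0.0602, Gp6 at 0.0586 and Clec1b at 0.0425. Ppbp, Clec1b and Tubb1 thus stood lower in the order in the dissections than in the imprints. The deposited lengths of these rows were used, and they need not be the lengths of the transcripts in platelets.

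Summed over the 10 genes, the imprints held 3808, 2802 and 4967 CPM in renouncers 1 to 3 and 1596 and 3070 CPM in perseverers 1 and 2. The OFC dissections lay between 6.43 and 9.15 CPM and the mPFC dissections between 5.10 and 7.40 CPM. The imprints therefore spanned a 3.11-fold range among themselves, while the dissections of the OFC spanned 1.42-fold. The counting intervals of the 5 imprints (95%, exact) did not overlap, the closest being those of renouncer 2 (2699 to 2908 CPM) and perseverer 2 (2962 to 3182 CPM). Taking the 9 erythroid genes out of the library totals as well raised the mean of the imprints from 3249 to 3866 CPM.

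Relative to haemoglobin the order was the opposite. The 10 genes gave 900.2 counts per 100000 haemoglobin counts in renouncer imprint 1 and 28.8, 57.1, 27.2 and 33.7 in the other 4 imprints. They gave 964 to 2587 in the OFC dissections and 647 to 1752 in the mPFC dissections. The imprints other than renouncer 1 were thus below every dissection on this scale, although above every dissection in CPM. Renouncer imprint 1, with the lowest haemoglobin share, had an erythroid sum of 8700 CPM against 100699 to 254135 CPM in the other imprints and a neuron sum of 4659 CPM against 1045 to 2137 CPM, and the part these differences play in the ratio was not tested.

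**Figure D2:**
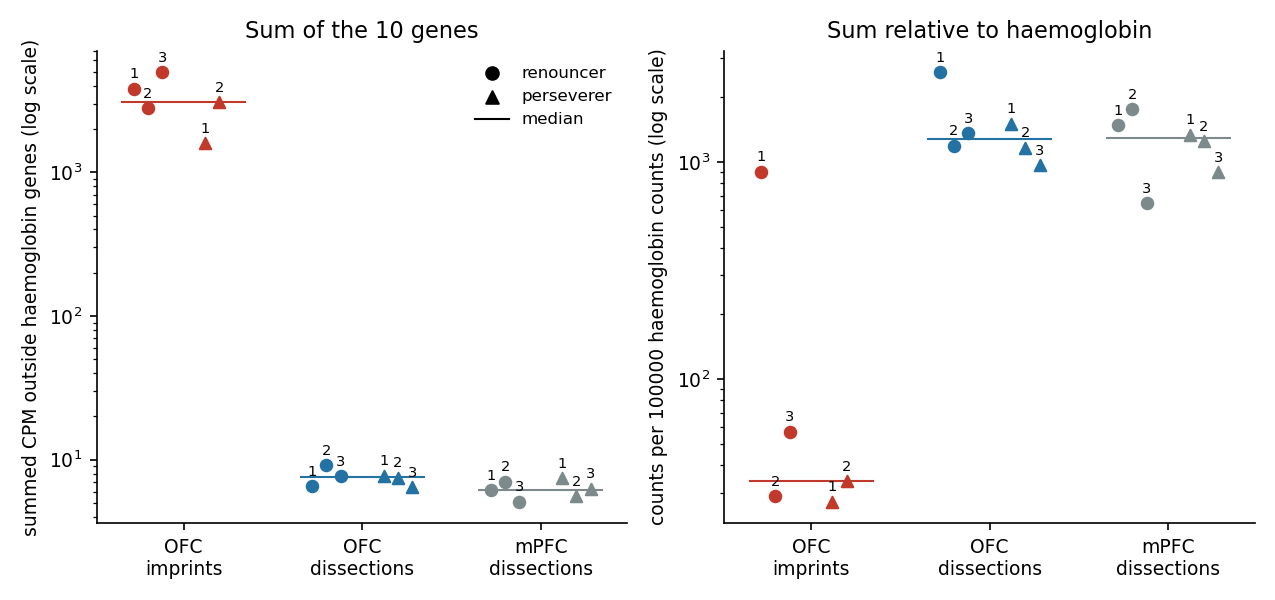
The left panel plots the summed CPM of the 10 genes and the right panel their counts per 100000 haemoglobin counts, both on log axes, with 1 point per library numbered by replicate and a line at the median. The imprints lie at 1596 to 4967 CPM on the left, above all dissections, and on the right 4 of the 5 lie at 27.2 to 57.1, below all dissections.

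The make-up of the platelet counts differed between imprints and dissections. In the imprints Ppbp made up 28.5% to 36.4% of the counts of the 10 genes and Pf4 26.5% to 32.5%. Gp9 was the steadiest of the rest, at 7.31% to 9.03%. In the OFC dissections Ppbp was 0% to 8.76%, Pf4 15.4% to 38.3%, Itga2b 17.2% to 37.2% and Gp5 6.25% to 30.3%. Ppbp and Clec1b shares in the imprints lay above those of all OFC dissections, and the Itga2b and Gp5 shares below them. Each dissection had 64 to 137 counts over the 10 genes, so that single shares there rest on few reads. These differences were not tested.

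**Figure D3:**
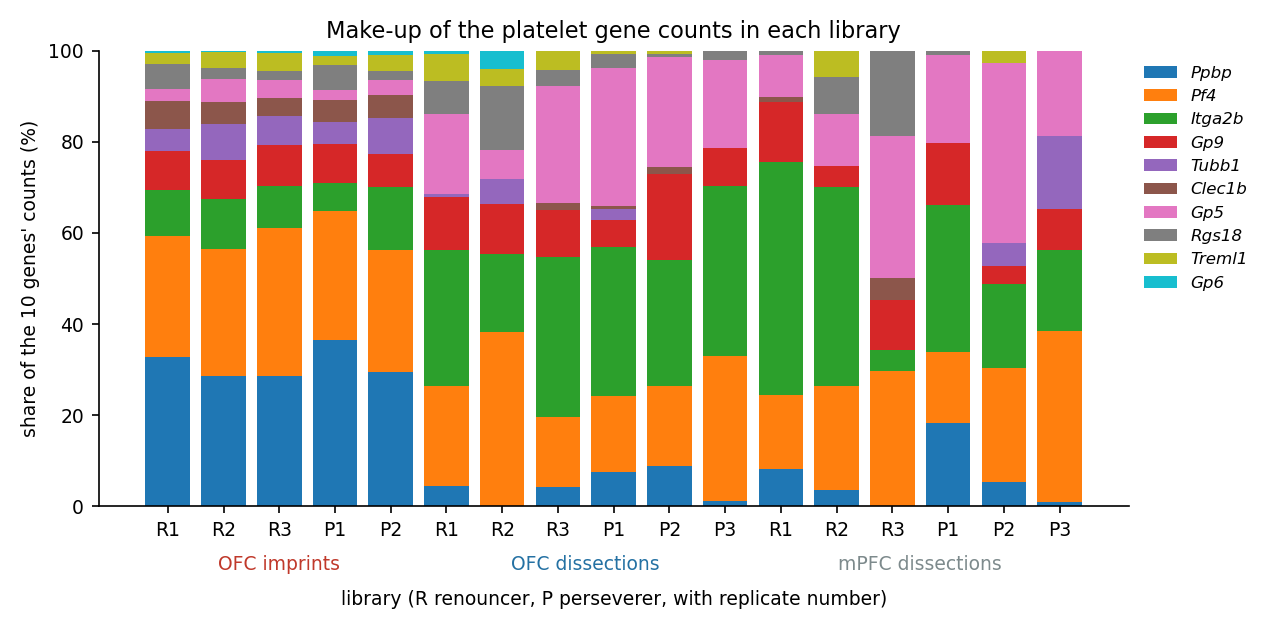
Stacked bars give each gene's share, in percent, of the counts of the 10 genes in each library. The 5 imprint bars are alike, with Ppbp (28.5% to 36.4%) and Pf4 as the largest parts, while the dissection bars vary more between libraries. The OFC dissection bars have smaller Ppbp parts and larger Itga2b and Gp5 parts than the imprints. In the mPFC dissections Ppbp ran from 0% to 18.3% and Itga2b from 4.69% to 51.0%.

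Other genes of platelet function, listed apart from the 10, were also higher in the imprints. Of 13 other platelet receptor genes 12 could be tested and all 12 were higher, with a median log2 fold change of 5.91, and 7 of them passed the count filter in the OFC dissections alone. Cd9, a tetraspanin that many cells share, stood at 1161 ± 487 CPM (n = 5) in imprints and 106.02 ± 19.5 CPM (n = 6) in OFC dissections (log2 fold change 4.27, SE 0.33, edgeR adjusted p = 9.32e-08). P2ry12, the ADP receptor of platelets and also a microglial gene, rose by 2.02 (SE 0.19, edgeR adjusted p = 1.07e-06). Scaled by library totals alone, 10 of the 12 were past the threshold.

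Of 12 granule and enzyme genes, 8 of which passed the filter in the OFC dissections alone, all 12 were higher (median 5.78). Alox12, the platelet 12-lipoxygenase, stood at 242 ± 115.3 CPM (n = 5) and 0.374 ± 0.345 CPM (n = 6) and rose by 10.23 (SE 0.69, edgeR adjusted p = 9.32e-08). Srgn, the granule proteoglycan serglycin, rose by 5.88 (SE 0.29, edgeR adjusted p = 9.57e-10), and Thbs1, thrombospondin, by 7.18 (SE 0.76, edgeR adjusted p = 1.02e-05). From this list, F13a1 also marks border macrophages and Vwf endothelium.

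Of 12 signalling genes all 12 were higher (median 3.54). Gng11, a G protein γ subunit, stood at 667 ± 325 CPM (n = 5) against 22.1 ± 5.88 CPM (n = 6) and rose by 5.71 (SE 0.36, edgeR adjusted p = 1.73e-08). Fermt3, kindlin-3, an activator of platelet integrins, rose by 5.60 (SE 0.38, edgeR adjusted p = 3.14e-08). Rap1b rose by 0.76 after scaling (SE 0.23, edgeR adjusted p = 0.0166), although its mean CPM was 199 ± 42.5 in imprints and 213 ± 33.7 in OFC dissections, and 11 of the 12 genes passed when library totals alone were used.

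Of 7 transcription factors of megakaryocytes 6 were higher (median 5.49). Only 3 of the 7 passed the filter in the OFC dissections alone, and the rest entered the test through the imprints. Nfe2, one of those with 4 counts over the 6 OFC dissections, which megakaryocytes need to make platelets, rose by 11.96 (SE 0.76, edgeR adjusted p = 3.19e-08) and Fli1 by 3.32 (SE 0.37, edgeR adjusted p = 4.30e-06), while Zfpm1 did not pass (log2 fold change 1.20, SE 0.51, edgeR adjusted p = 0.0824). Several of these factors also act in red cell precursors.

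Markers of other blood cells moved in the same direction, and their part in the platelet levels was not tested. The genes called higher were all 9 erythroid genes tested, all 8 of 10 neutrophil genes that could be tested, all 9 lymphocyte genes and all 5 monocyte genes. In the OFC dissections alone 5, 4, 0 and 1 of these passed the count filter, so that most entered the test through the imprints and their calls follow in part from the filter. Summed levels ran from 365 to 3812 CPM for neutrophil genes, 147 to 1900 CPM for lymphocyte genes and 651 to 1287 CPM for monocyte genes in the imprints. In the OFC dissections the same sums were 4.83 to 9.23, 0.783 to 1.81 and 36.2 to 253 CPM. In CPM, without TMM scaling, the lists did not peak in the same library: the platelet sum was highest in renouncer imprint 3, where the neutrophil sum was lowest, the neutrophil sum in renouncer imprint 1, and the lymphocyte sum in perseverer imprint 1, where the platelet sum was lowest.

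Pf4 is also expressed by border macrophages of the brain, and their markers were low beside it. The 6 border macrophage genes summed to 45.2 to 127 CPM in the imprints, of which F13a1, also a platelet gene, made up 60.2 ± 23.3 CPM (n = 5), and to 3.85 to 17.7 CPM in the OFC dissections. Mrc1, a defining macrophage marker, was at 5.30 ± 4.05 CPM (n = 5) in imprints and 1.15 ± 0.514 CPM (n = 6) in OFC dissections, against 937 ± 429 and 1.79 ± 0.893 CPM of Pf4. In the dissections the macrophage markers thus lay at levels near that of Pf4, and in the imprints far below it. Of the 6 genes, 4 were called higher in imprints, with a median log2 fold change of 3.02, where 16.4% of all genes tested were called higher. In the OFC dissections alone 4 of the 6 passed the count filter. The part of macrophages in the Pf4 level was not tested.

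**Figure D4:**
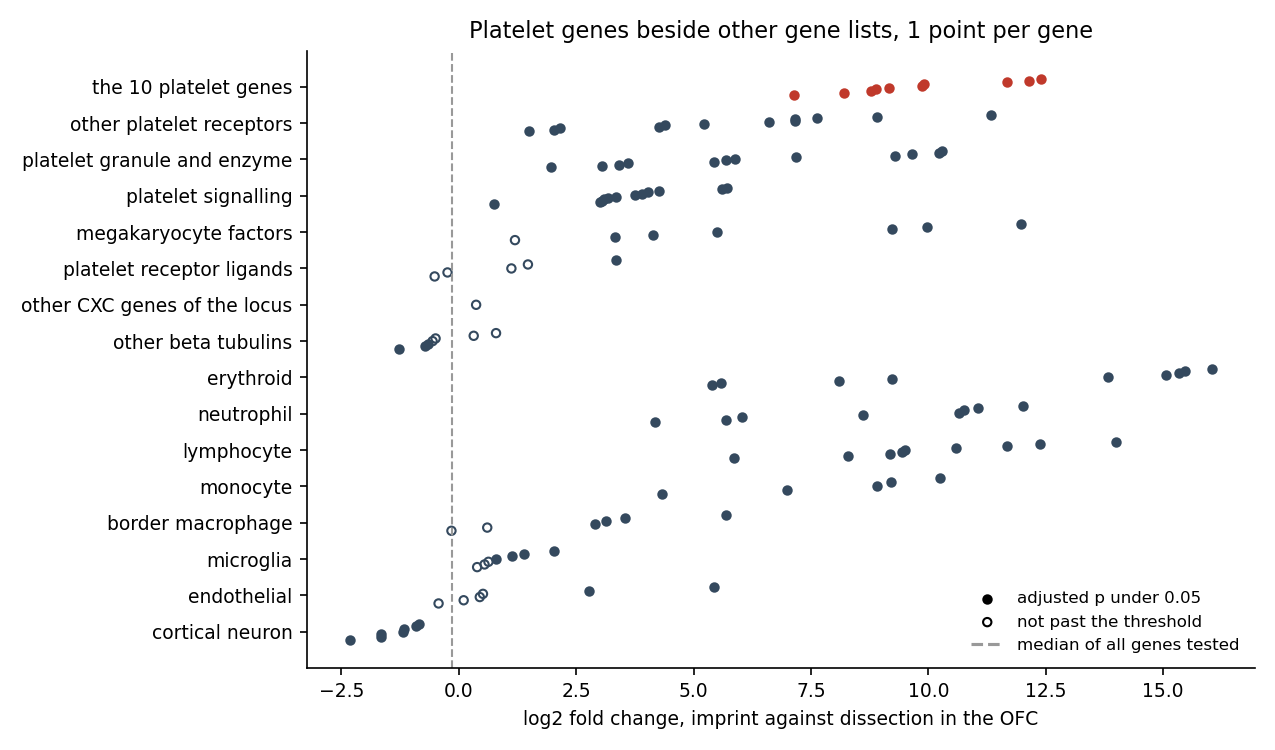
Each point is 1 gene's log2 fold change between imprints and dissections of the OFC, in rows by gene list, filled where the adjusted p was under 0.05. The 10 platelet genes (red) lie between 7.15 and 12.40, in the range of the other blood cell lists, and the 7 cortical neuron genes lie below the dashed median of all genes (-0.13).

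Within the dissections the 10 genes had few counts, from 0 in some libraries for the lowest to at least 16 in every library for Pf4. Between the OFC and the mPFC, 0 of the 4 that could be tested (Pf4, Gp9, Gp5 and Itga2b) were called, in a comparison in which 1.76% of 15019 genes were called in either direction. Their log2 fold changes were 0.26 (SE 0.39) for Pf4, 0.51 (SE 0.49) for Gp9, 0.26 (SE 0.40) for Gp5 and 0.31 (SE 0.45) for Itga2b, with edgeR adjusted p from 0.707 to 0.838. Pf4 stood at 1.503 ± 0.473 CPM (n = 6) in the mPFC against 1.79 ± 0.893 CPM (n = 6) in the OFC, and the summed level at 6.24 ± 0.866 CPM against 7.50 ± 0.986 CPM, so that the ranges of the regions overlapped. Between libraries of the same phenotype and replicate number the sum was higher in the OFC in 6 of 6 pairs, by 0.171 to 2.54 CPM. The labels do not say that these numbers mark an animal. With the 6 pairs as a block, a fit added after the data were seen, 7.54% of genes were called and none of the 4, with edgeR adjusted p from 0.608 to 0.802. Differences smaller than these errors were not detectable at this depth.

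Perseverers and renouncers were compared in each kind of sample. In the imprints 0 of the 10 genes were called, as were 0 of 9626 genes tested (0%, edgeR), with 170 genes at an unadjusted p under 0.05, and DESeq2 and limma also called 0. Of the 10, 9 had a lower fitted level in perseverers, from -0.20 for Itga2b (SE 0.84) to -0.97 for Gp5 (SE 0.76), and Gp6 a higher one at 0.64 (SE 0.75), with an edgeR adjusted p of 0.99996 for each. Over all genes, 4694 of 9626 had a higher fitted level in perseverers. The 10 genes were read in the same 5 libraries, so their directions are not separate observations. For Gp9 and Gp5, 2 of 10 genes, both perseverer imprints lay below all 3 renouncer imprints in CPM without TMM scaling. On this scale 7.91% of 17152 genes with a count had groups that did not overlap. The TMM factors were 1.77 for renouncer imprint 1 and 0.698 for perseverer imprint 2, so the order of these libraries depends on the scaling. In the fitted, TMM-scaled values the direction rested on perseverer imprint 1. Without it, 7 of the 10 were higher in the remaining perseverer library, for example Itga2b at 0.63 and Tubb1 at 0.42, none past the test, and without perseverer imprint 2 all 10 were lower. In CPM, without TMM scaling, perseverer imprint 2 was still below the renouncer mean for 7 of the 10 genes, for example at 825 against 1136 CPM for Pf4, and above it for Gp6, Itga2b and Tubb1, so that this turn depends on the scaling. Perseverer imprint 1 was below the renouncer mean for all 10 and had the highest lymphocyte sum of the imprints, whose part was not tested.

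**Figure D5:**
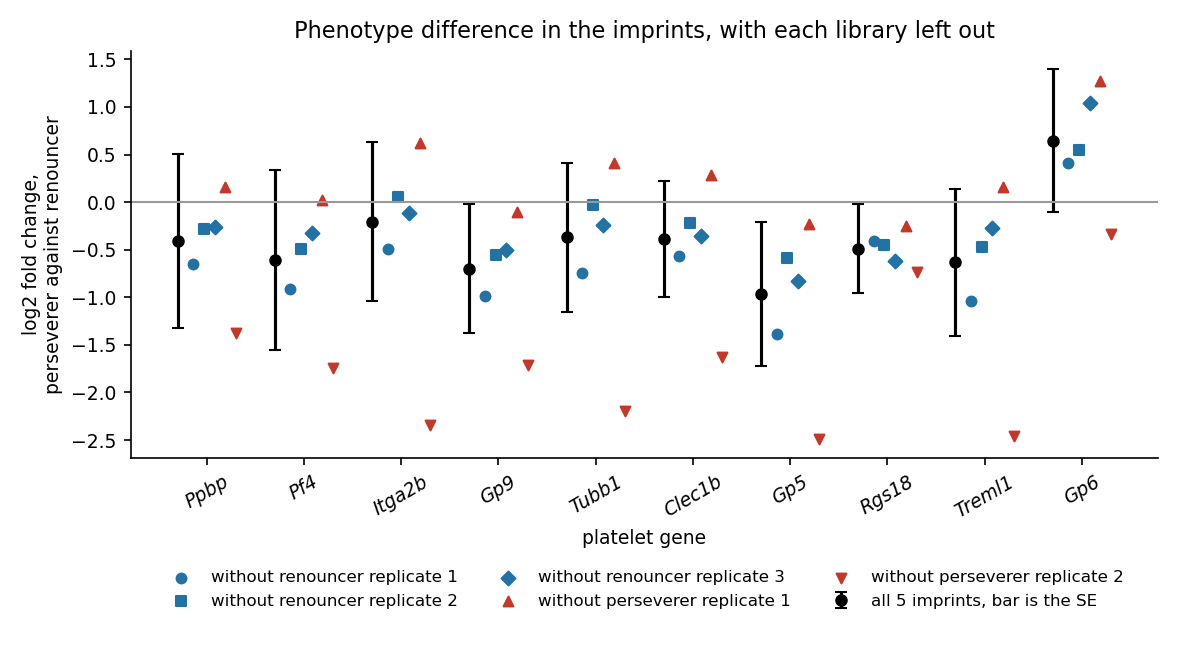
Log2 fold changes of perseverer against renouncer imprints are plotted for the 10 genes, in black with the SE from all 5 imprints and in colour with each library left out. Leaving out perseverer replicate 1 moves 6 of the 9 genes that were lower to above 0, and leaving out perseverer replicate 2 moves all 10 below 0.

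In the OFC dissections 0 of the 4 genes tested differed between phenotypes, in a comparison with 0 of 14615 genes called (0%, edgeR, 377 at an unadjusted p under 0.05, 0 by DESeq2 and limma). Pf4 was at -0.35 (SE 0.50), Gp9 at -0.02 (SE 0.56), Gp5 at 0.56 (SE 0.51) and Itga2b at 0.19 (SE 0.37), with edgeR adjusted p from 0.951 to 0.999. In the mPFC 0 of 3 were called, beside 0 of 14369 genes (0%, edgeR, 640 at an unadjusted p under 0.05, 0 by DESeq2 and limma), with Pf4 at 0.32 (SE 0.63), Gp5 at 0.74 (SE 0.69) and Itga2b at -0.46 (SE 0.82).

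Rgs18 and Treml1 were too low to be tested in the dissections but had counts mainly in renouncers. The renouncer libraries of the OFC had 10, 18 and 4 counts of Rgs18 and the perseverer libraries 4, 1 and 2, while Treml1 had 8, 5 and 5 against 1, 1 and 0. In CPM these were the 2 of the 10 genes whose groups did not overlap there, where 8.13% of 19084 genes with a count had groups that did not overlap. The nearest Rgs18 libraries, renouncer 3 and perseverer 1, had 4 counts each and differed only in library size. For the mPFC the counts of Rgs18 were 1, 7 and 12 in renouncer libraries against 1, 0 and 0, and those of Treml1 were 0, 5 and 0 against 0, 2 and 0. There both genes overlapped between groups, as did the other members with a count, where 10.2% of 18431 genes did not overlap. Rgs18 and Treml1 were singled out after their values were seen, and other genes too low to test in both regions did not share this direction throughout. Summed over renouncers against perseverers, Ppbp had 11 against 23 counts in the OFC and 11 against 25 in the mPFC. Tubb1 had 8 against 3 and 0 against 22, Clec1b 2 against 3 and 4 against 0, and Gp6 6 against 0 and none in the mPFC.

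Whether the phenotype difference changed between imprints and dissections was tested as an interaction over the 11 OFC libraries. None of the 10 genes passed, beside 0 of 15673 genes (0%, edgeR), with 1362 genes at an unadjusted p under 0.05, 77 called by DESeq2 and 0 by limma. The largest term of the 10 was that of Gp6 at 4.04 (SE 1.78, edgeR adjusted p = 0.559), which rested on 6 counts in the OFC dissections, all in renouncers. Rgs18 was at 1.59 (SE 0.77, edgeR adjusted p = 0.575).

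Across the 5 imprints each of the 10 genes was set against the mean pattern of all 10, to which it contributes itself. The mean of the 10 genes' centred log2(CPM + 1) values was 0.32, -0.12 and 0.66 in renouncers 1 to 3 and -0.94 and 0.09 in perseverers 1 and 2. The root mean square difference from this mean was smallest for Pf4 (0.134), Gp9 (0.143), Ppbp (0.146) and Clec1b (0.180), and largest for Rgs18 (0.666) and Gp6 (0.626). Rgs18 and Gp6 did not follow the mean pattern. Their highest and lowest levels fell in other libraries than renouncer 3 and perseverer 1, where the mean was highest and lowest. Among the 5841 genes compared, mostly those with a mean of 20 CPM or more in the imprints, the 5 genes outside the set with the most similar pattern over these 5 libraries were Hmga2-ps1 (0.0972), Zyx (0.108), Ncoa2 (0.111), Cd9 (0.134) and Rbm15b (0.161). Zyx, the focal adhesion protein zyxin, stood at 384 CPM in imprints and 47.2 CPM in OFC dissections, and Hmga2-ps1, annotated as a pseudogene, at 34.8 and 1.62 CPM. Ncoa2 and Rbm15b had lower means in the imprints (28.8 and 20.2 CPM) than in the OFC dissections (38.6 and 50.8 CPM). The values of 1 library share its depth and scaling, and the likeness is a description over 5 points.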

How the data were processed

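Bulk RNA of 17 libraries was used. A Qiagen extraction was followed by SMART-Seq v4 cDNA and Nextera tagmentation, neither of which keeps strand, per the labels' protocols. The authors deposited 3 tables of unnormalized counts over the same 25239 genes, as whole numbers. Deposited gene lengths in bases gave the levels per kilobase. FastQC 0.11.8 and the build mm10 are listed in the submitters' processing notes. How reads were aligned and assigned to genes is not given in the sources used here.

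The 12 haemoglobin genes in the tables were removed before library sizes, and CPM use the remaining counts without further scaling. Tests used edgeR 4.0.16 in R 4.3.3: filterByExpr by group, TMM scaling, robust quasi-likelihood fits, two-sided, Benjamini-Hochberg over all genes tested, threshold 0.05. Phenotype was a term in the imprint and region comparisons, each phenotype comparison used its own libraries, and the interaction was a contrast of 4 group means. Fold changes are higher in imprints, in the OFC or in perseverers where positive. The SE is the size of the fold change over the square root of F and is approximate. Intervals and the limit of 3 counts cover counting error only, and PCR reads are not independent molecules.

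The members and the gene lists were chosen with earlier results of these data known. Named were all 10 members, their receptor partners, up to 3 genes of each list with the largest mean CPM in the imprints, and the 5 genes most like the members over the imprints. Genes outside this rule are named only where they make up a count of 5 or fewer. Alternatives were DESeq2 1.42.0, limma 3.58.1 voom, other scalings and filters, haemoglobin genes kept, a replicate block, all 17 libraries together and each library left out, and, chosen after the data were seen, removal of 9 erythroid genes and, between regions, a block of the 6 same-numbered pairs. Exons were compared on GENCODE M21 (GRCm38), and positions and sequences are from RefSeq GRCm38.p6. No 2 libraries of a group agreed within sampling noise.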

Additional observations from a re-analysis of the deposited data

Results flagged for a closer look

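Samples that stood apart from the others of their kind were searched for with Dixon's criterion in 36 sets of values (each gene, the sum and the sum per haemoglobin count, in 5 imprints, 6 OFC dissections and 6 mPFC dissections), and 10 passed. The criterion flags about 1 in 20 sets of normally distributed values by chance. Sets near 0 counts are not of that kind, so the number flagged cannot be set against this rate. Of the 6 libraries, 4 were at 0 for Gp6 in the OFC and for Clec1b, Treml1 and Tubb1 in the mPFC. In the imprints, Rgs18 at 210 CPM in renouncer replicate 1 stood apart from a next highest value of 96.1 CPM, and the 10 genes per 100000 haemoglobin counts at 900.2 in the same library stood apart from 57.1.

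Of the values in OFC dissections, 3 belonged to renouncer replicate 2: Gp6 at 0.357 CPM (5 counts), Rgs18 at 1.29 CPM (18 counts) and Tubb1 at 0.5005 CPM (7 counts). Renouncer replicate 1 stood apart for the sum per 100000 haemoglobin counts, at 2587 against a next value of 1499.8. In the mPFC dissections Ppbp was at 1.36 CPM (20 counts) in perseverer replicate 1, Tubb1 at 1.01 CPM (18 counts) in perseverer replicate 3, Treml1 at 0.404 CPM (5 counts) in renouncer replicate 2 and Clec1b at 0.239 CPM (3 counts) in renouncer replicate 3. The single-gene values in dissections rest on 3 to 20 counts each.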

How the results depend on the processing

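All 10 genes were called higher in imprints under each of the alternatives of that comparison, leave-outs included. Scaling by library totals moved the median log2 fold change of all genes tested from -0.13 to -0.80 and the share of higher calls among all calls from 48.6% to 23.2%. With the replicate block 4731 genes were called in place of 5299, and 10 members in both. Whether replicate numbers pair the samples was not settled. Deviations of same-numbered imprints and OFC dissections of 1 phenotype correlated at 0.0002 to 0.176, and those of imprints and mPFC dissections at -0.0061 to 0.172. Those of OFC and mPFC dissections correlated over 0.1 in 5 of 6 pairs (3 of 3 perseverer pairs, 0.22 to 0.72) and at -0.11 in 1 renouncer pair, 4 of 6 OFC libraries were closest to their own number, and the library codes in the labels are consecutive within each pair. Dissections of different phenotypes also correlated, from -0.64 (OFC renouncer 1 with OFC perseverer 3) to 0.61 (OFC renouncer 1 with OFC perseverer 2). High values therefore do not by themselves mark a pair. In the imprints between phenotypes 0 genes were called from these 5 libraries alone and 62 (0.386% of genes tested) with all 17 libraries, no member among them. With 1 imprint left out the log2 fold changes of 7 members ran from -1.75 to 0.021 for Pf4, -1.37 to 0.16 for Ppbp, -2.35 to 0.63 for Itga2b, -1.63 to 0.29 for Clec1b, -2.46 to 0.16 for Treml1, -2.19 to 0.42 for Tubb1 and -0.34 to 1.27 for Gp6, the lows without perseverer replicate 2 and the highs without perseverer replicate 1. Itga2b was at 0.050 without renouncer replicate 2. The 264 genes called between regions (1.76% of genes tested) became 698 (4.65%) with DESeq2, 889 (5.92%) with limma, 535 (3.56%) with the replicate block, 1133 (7.54%) with the block of 6 pairs, 21 (0.131%) with all 17 libraries, and 0.777% to 3.08% with 1 library left out, with no member called. Between regions Pf4 ran from -0.065 to 0.48 with 1 library left out, below 0 only without OFC renouncer replicate 2. The interaction had 77 calls (0.491%) with DESeq2, 6 (0.0374%) with all 17 libraries and 0% to 0.0247% with 1 library left out. The mean summed level of the imprints was 797 CPM of the whole library total (328 CPM without renouncer replicate 1), and without Pf4 the means were 5.70 CPM in the OFC and 4.74 CPM in the mPFC dissections. The cause of these changes was not tested. Depth limits the dissections, where 64 to 137 counts fell on the 10 genes per library, and 4 of the imprints, with 979651 to 1305903 counts outside haemoglobin genes.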
